A study of Mus musculus with 16 samples.

Results

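The values of 10 genes used as markers of astrocytes were followed through the dentate gyrus of aged mice: Aqp4, Gja1, Gjb6, Slc1a2, Slc1a3, Glul, Aldh1l1, Aldoc, S100b and Ntsr2. They were taken from the abundance tables by gene name, as general markers of the cell type, and they are 10 of the 24421 gene names listed. The choice was made with earlier results of these data known. All 10 were among the 17317 genes whose mean TPM reached 0.1 and that entered the tests (TPM is a share of all transcripts, corrected for gene length). The dentate gyrus of male C57BL/6 mice aged 1 year was sequenced in 16 mRNA libraries made from total RNA, each pooled from 2 mice. The groups were p16Ink4a +/+ sedentary mice (p16 WT CTL, replicates 1 to 4), p16Ink4a -/- sedentary mice (p16 KO CTL, replicates 5 to 8), p16Ink4a +/+ mice with 12 days of a running wheel (p16 WT RUN, replicates 9 to 12) and p16Ink4a -/- mice with the same running (p16 KO RUN, replicates 13 to 16), with 4 libraries in each. The study asked what distinguishes the aged dentate gyrus lacking p16 and how it responds to running, a stimulus of stem cell division. The deletion is carried by every cell of the animal and was moved from the FVB to the C57BL/6 background by repeated crossing, and the product p19Arf of the same locus is retained. Because each library is a pool, the spread between libraries may be smaller than that between single animals.

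Astrocytes take up the glutamate released at synapses, turn it into glutamine, buffer potassium and water, and are joined to each other by gap junctions. p16Ink4a is an inhibitor of the cyclin-dependent kinases that drive entry into the cell cycle. In the dentate gyrus the radial glia-like stem cells share part of the astrocyte programme, including Slc1a3 and Aldoc, so these transcripts do not belong to mature astrocytes alone. In RNA from whole tissue, fewer astrocytes and less RNA of a marker per astrocyte cannot be told apart.

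The markers were abundant in every library. Glul led with a mean of 1759 ± 315 TPM (SD, n = 16 libraries), followed by Slc1a2 with 1153 ± 134 TPM and Aldoc with 904 ± 129 TPM. Slc1a3 followed at 488 ± 70.4 TPM, Gja1 at 214 ± 33.5 TPM, Ntsr2 at 168 ± 21.4 TPM and S100b at 150.1 ± 29.0 TPM. Aqp4 at 71.2 ± 41.5 TPM, Gjb6 at 55.9 ± 8.76 TPM and Aldh1l1 at 45.6 ± 5.68 TPM were the least abundant of the 10. The order of neighbours was the same in 16 of 16 libraries for Glul above Slc1a2, Slc1a2 above Aldoc, Aldoc above Slc1a3, Slc1a3 above Gja1 and S100b above Aqp4. It was less regular for Gja1 above Ntsr2 (15 of 16), Gjb6 above Aldh1l1 (15 of 16), Ntsr2 above S100b (12 of 16) and Aqp4 above Gjb6 (10 of 16). The ranges of neighbours over the libraries overlapped in all pairs except Aldoc with Slc1a3 and Slc1a3 with Gja1. Together the 10 genes held 4187 to 6801 TPM per library, with group means of 4920 ± 587 TPM in p16 WT CTL, 5660.0 ± 1000 TPM in p16 KO CTL, 4727 ± 324 TPM in p16 WT RUN and 4726 ± 493 TPM in p16 KO RUN (SD, n = 4). The 12 markers of dentate granule neurons, the tissue's main neuron, were above 0 in each library as well. Their summed level was 811 to 1687 TPM in p16 WT CTL and 646 to 1273 TPM in p16 KO CTL. In the running groups it was 1008 to 1469 TPM (p16 WT RUN) and 1073 to 1601 TPM (p16 KO RUN).

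Ntsr2, S100b and Gja1 did not overlap between the 2 knockout groups after the libraries were scaled, although their TPM before scaling did. For these genes the 250 bases upstream of the RefSeq start are given (build GRCm38.p6, which is mm10), read 5′ to 3′ on the strand of the gene. Capitals mark matches on either strand to one of 5 short motifs: a TATA box spelled TATAAA, a GC box spelled GGGCGG, the CCAAT box, a half-site of nuclear factor I spelled TTGGCA and a STAT site spelled TTCNNNGAA.

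Ntsr2 promoter (chr12:16653220-16653469, plus strand): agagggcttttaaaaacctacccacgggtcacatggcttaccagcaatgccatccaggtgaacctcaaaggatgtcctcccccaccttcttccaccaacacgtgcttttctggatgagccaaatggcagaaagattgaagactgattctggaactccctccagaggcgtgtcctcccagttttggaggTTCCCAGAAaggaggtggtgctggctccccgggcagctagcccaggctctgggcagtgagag

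S100b promoter (chr10:76253586-76253835, plus strand): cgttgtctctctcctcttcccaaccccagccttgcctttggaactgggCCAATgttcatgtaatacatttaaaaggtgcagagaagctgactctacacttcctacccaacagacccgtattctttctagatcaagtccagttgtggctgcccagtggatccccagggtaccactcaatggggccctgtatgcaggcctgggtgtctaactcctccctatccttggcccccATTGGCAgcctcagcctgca

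Gja1 promoter (chr10:56377050-56377299, plus strand): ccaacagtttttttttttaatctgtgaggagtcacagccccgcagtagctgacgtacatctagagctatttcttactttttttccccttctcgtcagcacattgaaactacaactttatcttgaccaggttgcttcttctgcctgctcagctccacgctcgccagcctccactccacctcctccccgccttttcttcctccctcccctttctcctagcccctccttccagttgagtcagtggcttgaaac

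Ntsr2 held 1 STAT match that ended 53 bases before the start. S100b held 2 matches to CCAAT and 1 to TTGGCA, and the nearest CCAAT match overlapped the TTGGCA match. Gja1 held none of the 5, which says only that these letters are not in this window. Promoters were listed for 9 of the 10 markers in 10 entries, of which Aldoc has 2, its STAT matches lying in the second alone. Of these 10 entries 4 held a GC box, 4 a CCAAT box, 3 a STAT match, 2 a half-site of nuclear factor I and 1 a TATA box. Among all 32851 listed promoters the same windows held these motifs in 32.7%, 33.8%, 7.02%, 12.3% and 12.4% of entries. A match is a string of letters and not a measured binding site.

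Before the comparisons, 3 libraries have to be named, since they stand apart. In p16 WT CTL replicate 2 and p16 KO CTL replicates 6 and 7, the median centred log2 level of 10 long noncoding transcripts held in the nucleus, such as Malat1 and Meg3, was between -1.61 and -0.67, whereas it lay between 0.047 and 0.49 in the other 13 libraries. The coverage of these libraries relative to the mean was 1.95, 1.02 and 1.68, against 0.62 to 1.07 in the others. The marker results of comparisons that involve a sedentary group were therefore also computed without them, a choice made after the data were seen. Cdkn2a, the locus of p16Ink4a, was listed between 0 and 0.586 TPM in p16 WT libraries and between 0 and 0.413 TPM in p16 KO libraries. At this level, and with p19Arf counted in the same entry, it does not check the genotypes.

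The same 3 libraries held the highest levels of the astrocyte markers. The median over the 10 markers of the log2 level, centred on each marker's mean over 16 libraries, was 0.28 in p16 WT CTL replicate 2 and 0.47 and 0.48 in p16 KO CTL replicates 6 and 7, and lay between -0.21 and 0.046 in the other 13. Of the 10 markers, 7 were higher in each of these 3 libraries than in any of the other 13, and for Aqp4, Gjb6 and Ntsr2 this held in 2 of the 3. Other lists moved in the same libraries. The 11 microglial markers had a median of 0.22 to 0.49 there against -0.23 to 0.045 elsewhere, and the 10 markers of endothelium and pericytes -0.68 to -0.23 against -0.055 to 0.38. Outside these 3, p16 KO CTL replicate 8 had the lowest median of granule neuron markers (-0.90) and the highest of oligodendrocyte markers (0.70). Among the other 13 libraries, no relation between the nuclear RNA score and the marker median was detectable (Pearson's r = 0.0032, permutation p = 0.992; Spearman's rho = 0.011, permutation p = 0.978; n = 13, 100000 permutations), and r was -0.31 (permutation p = 0.354) once the 2 libraries farthest from the median score were left out.

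**Figure D1:**
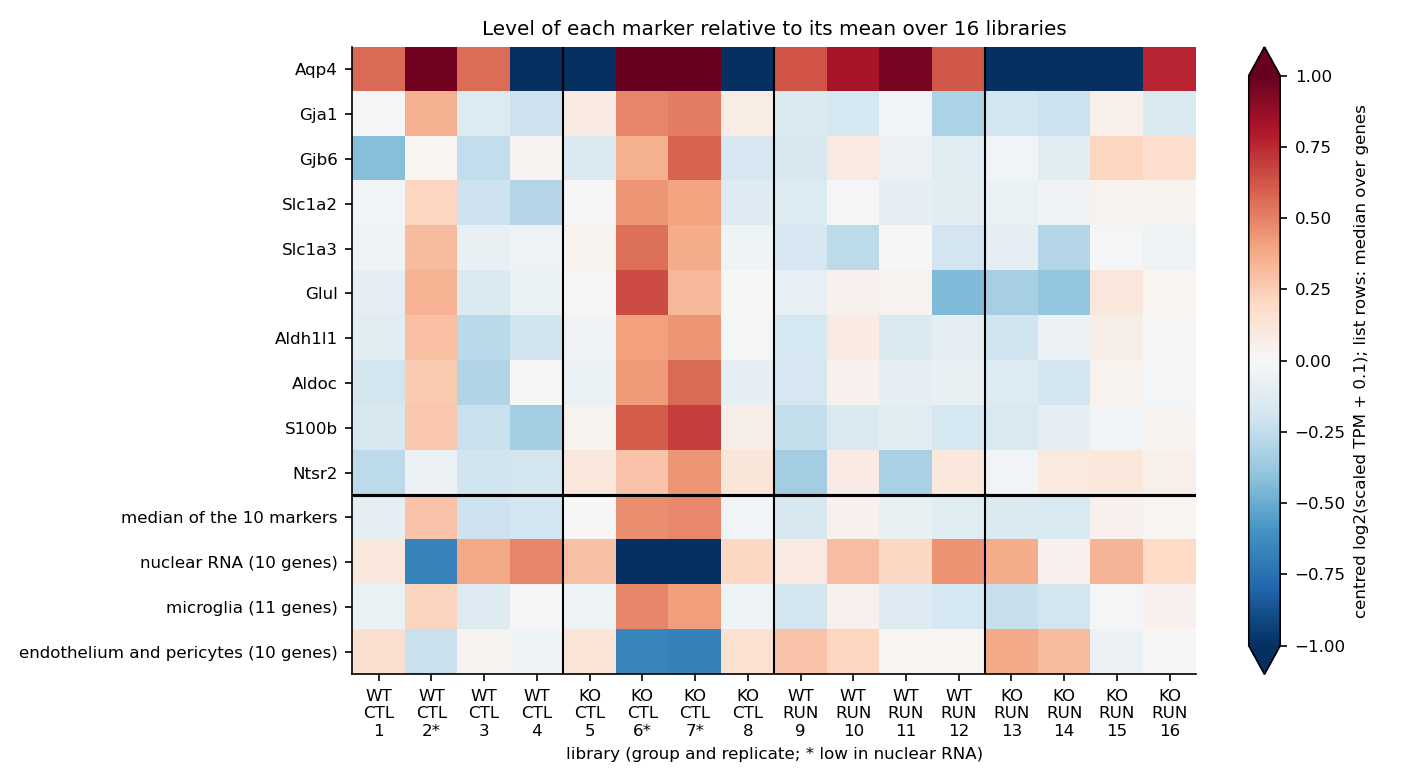
Colour shows log2(scaled TPM + 0.1) of each marker (rows) minus its mean over 16 libraries (columns, in groups of 4), with values beyond 1 drawn in the end colours; the 4 lowest rows show list medians. Replicates 2, 6 and 7, starred, are red for nearly all markers and microglia and blue for nuclear RNA and endothelium, while Aqp4 alternates between extremes in all groups except p16 WT RUN.

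The markers moved together over the 16 libraries, and less so once the 3 libraries low in nuclear RNA were left out. Over the 16 libraries the 36 pairs without Aqp4 had a median r of 0.81 (0.37 to 0.95). After the group means were taken off it was 0.76. All 45 pairs had a median r of 0.77 (-0.013 to 0.95). In the 13 libraries without those low in nuclear RNA the median r was 0.34 (-0.19 to 0.77) for the 36 pairs. For all 45 it was 0.28 (-0.44 to 0.77) there. Each marker's r with the mean of the other 9 then lay between -0.23 (Aqp4) and 0.44 (Slc1a2). These correlations describe the libraries, which share depth and dissection, and carry no test. Among the 5 genes most like the mean of the markers over the 16 libraries, out of 14428 whose mean TPM reached 1, were Sfxn5 (r = 0.932), Gna13 (0.93), Rpl18 (0.917) and Rpl29 (0.916). Sfxn5 encodes a mitochondrial carrier, Gna13 a G protein subunit, and the Rpl genes are ribosomal. After the group means were taken off, the 5 most alike included Scg3 (r = 0.966), Slc39a12 (0.958), Sfxn5 (0.95) and Pfdn5 (0.941). Slc39a12, a zinc transporter, is on the list of other astrocyte genes.

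Of the channel and junction proteins, Aqp4, the water channel of astrocyte end-feet, behaved unlike all other markers. It measured 83.8, 105, 85.6 and 18.5 TPM in the 4 p16 WT CTL libraries, 28.6, 132, 117 and 18.7 TPM in p16 KO CTL, 89.2, 99.2, 112 and 87.2 TPM in p16 WT RUN and 24.8, 19.1, 20.9 and 97.4 TPM in p16 KO RUN. The values fell into 2 separate ranges: 6 libraries lay between 18.5 and 28.6 TPM and 10 between 83.8 and 132 TPM, with nothing between. The low range held 1 p16 WT CTL library (replicate 4), 2 p16 KO CTL libraries (5 and 8), 3 p16 KO RUN libraries (13, 14 and 15) and no p16 WT RUN library. On the log2 scale the gap was 1.55. Of 11704 genes whose mean TPM reached 5, 12 (Aqp4 included) had a gap as large with at least 4 libraries on each side, while the widest such gap of the other 9 markers was 0.12. The deposited coverage of Aqp4 showed the same split after scaling, with 22.4 to 35.1 in the low and 102 to 174 in the high libraries, but it comes from the same StringTie run as the TPM. Whether the way that run assigned reads to the Aqp4 entry differs between the 2 ranges was not tested, so each Aqp4 difference below is one of StringTie estimates. No other entry of the tables overlaps that of Aqp4.

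Gja1, the main connexin of astrocyte gap junctions, measured 211, 259, 199 and 189.8 TPM in the 4 p16 WT CTL libraries, 228, 282, 278 and 218 TPM in p16 KO CTL, 196, 186, 215 and 171 TPM in p16 WT RUN and 189.6, 181, 222 and 196 TPM in p16 KO RUN. Its entry spans chr10:56377300-56390419 on the plus strand in mm10. Every p16 KO RUN library but replicate 15 lay below 200 TPM, and the 4 p16 KO CTL libraries, led by replicates 6 and 7, did not overlap those of p16 KO RUN on the scaled values. Gjb6, the second connexin of astrocytes, measured 41.4, 53.7, 48.0 and 58.4 TPM in the 4 p16 WT CTL libraries, 50.8, 67.1, 76.8 and 48.1 TPM in p16 KO CTL, 50.9, 58.7, 54.9 and 51.1 TPM in p16 WT RUN and 55.4, 50.7, 64.6 and 63.6 TPM in p16 KO RUN. Its groups overlapped in all comparisons, with means of 50.4 ± 7.34, 60.7 ± 13.6, 53.9 ± 3.69 and 58.6 ± 6.65 TPM (SD, n = 4) for sedentary wild-type, sedentary knockout, running wild-type and running knockout mice.

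Among the genes of glutamate handling, Slc1a2, the principal glutamate transporter of the forebrain, measured 1129, 1278, 1024 and 968 TPM in the 4 p16 WT CTL libraries, 1172, 1471, 1398 and 1026 TPM in p16 KO CTL, 1071, 1129, 1107 and 1065 TPM in p16 WT RUN and 1120.2, 1106, 1183 and 1199.7 TPM in p16 KO RUN. The p16 WT RUN libraries were within 1065 to 1129 TPM, the narrowest group of any marker with a coefficient of variation of 2.75%. Slc1a3, the glutamate transporter shared with radial glia-like cells, measured 476, 578, 475 and 483 TPM in the 4 p16 WT CTL libraries, 504, 669, 578 and 458 TPM in p16 KO CTL, 442, 403, 498 and 425 TPM in p16 WT RUN and 462, 390.1, 485 and 479 TPM in p16 KO RUN. The 4 lowest libraries, 390.1 to 442 TPM, were all from running mice. Glul, glutamine synthetase, measured 1639, 2111, 1616 and 1719 TPM in the 4 p16 WT CTL libraries, 1777, 2579, 2016 and 1691 TPM in p16 KO CTL, 1684, 1779.8, 1840.5 and 1287 TPM in p16 WT RUN and 1405, 1311, 1896 and 1795 TPM in p16 KO RUN. Replicate 6 stood highest and 4 of the 8 running libraries were below every p16 KO CTL library, with overlap between all groups.

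Of the metabolic enzymes, Aldh1l1, a folate enzyme used to define astrocytes, measured 42.3, 53.4, 38.7 and 40.9 TPM in the 4 p16 WT CTL libraries, 44.9, 57.1, 56.8 and 44.0 TPM in p16 KO CTL, 41.1, 47.8, 42.5 and 42.9 TPM in p16 WT RUN and 40.3, 43.0, 47.6 and 46.5 TPM in p16 KO RUN. Outside the 3 libraries low in nuclear RNA it stayed between 38.7 and 47.8 TPM in all groups. Aldoc, the brain form of the glycolytic enzyme aldolase, measured 792, 1029.7, 752 and 933 TPM in the 4 p16 WT CTL libraries, 869, 1137, 1222 and 820.5 TPM in p16 KO CTL, 820.4, 918, 869 and 856 TPM in p16 WT RUN and 830.4, 774, 928 and 904 TPM in p16 KO RUN. It too was highest in replicates 2, 6 and 7, and the running groups lay within the range of the sedentary ones.

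S100b, a calcium-binding protein of astrocytes, measured 133, 171, 130.3 and 120.2 TPM in the 4 p16 WT CTL libraries, 154, 214, 221 and 151 TPM in p16 KO CTL, 129, 134, 141 and 132 TPM in p16 WT RUN and 135, 136, 147 and 154 TPM in p16 KO RUN. Its entry spans chr10:76253836-76261319 on the plus strand in mm10. The p16 KO CTL libraries lay above all p16 WT CTL libraries except replicate 2. Ntsr2, a neurotensin receptor found mainly on astrocytes, measured 140.4, 154, 149.5 and 152 TPM in the 4 p16 WT CTL libraries, 184, 192, 209.9 and 178 TPM in p16 KO CTL, 135, 176, 137 and 181 TPM in p16 WT RUN and 167, 176, 181 and 177 TPM in p16 KO RUN. Every p16 KO CTL and every p16 KO RUN library lay above all 4 p16 WT CTL libraries. Its entry spans chr12:16653470-16660236 on the plus strand in mm10. The p16 WT RUN libraries split, with 2 at 135 and 137 TPM and 2 at 176 and 181 TPM.

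**Figure D2:**
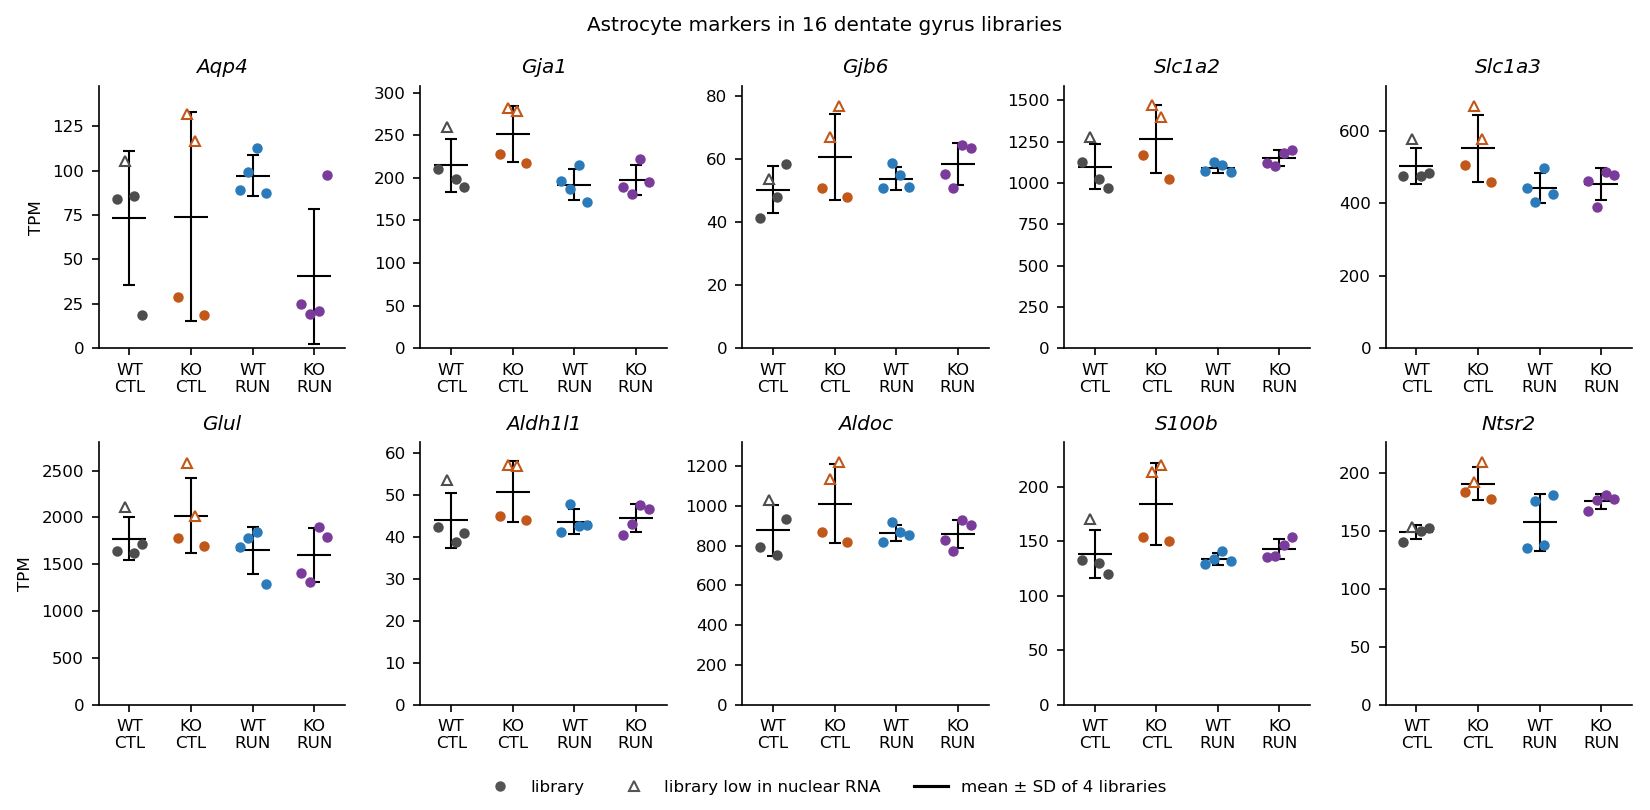
TPM of each marker (vertical axes from 0) in the 4 groups; points are libraries, open triangles the 3 libraries low in nuclear RNA, and bars the mean ± SD of 4 libraries. Ntsr2 in p16 KO CTL (178 to 209.9 TPM) lies wholly above p16 WT CTL (140.4 to 154 TPM), and Aqp4 occupies 2 ranges.

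In the comparison of running with sedentary p16 KO mice (p16 KO RUN against p16 KO CTL, Set A), Gja1, S100b, Glul, Slc1a3 and Ntsr2 fell. All 10 fitted differences were below 0, with a median log2 fold change of -0.31 against 0.018 over all genes tested. By limma, a linear model with variances moderated across genes, 5 of the 10 markers fell at an unadjusted p under 0.05, the threshold of the study, while 18.5% of all genes passed it, 7.74% as lower and 10.7% as higher. In what follows a gene is said to rise or fall where it passed this unadjusted threshold, and the p printed beside it is the one adjusted over all genes tested (Benjamini and Hochberg). Gja1 fell by 0.41 on the log2 scale (SE 0.12, adjusted p = 0.178). S100b fell by 0.41 (SE 0.15, adjusted p = 0.231) and Glul by 0.40 (SE 0.17, adjusted p = 0.269). Slc1a3 fell by 0.34 (SE 0.13, adjusted p = 0.241) and Ntsr2 by 0.18 (SE 0.079, adjusted p = 0.263). The remaining 5 markers, Aldoc, Aldh1l1, Aqp4, Slc1a2 and Gjb6, had log2 fold changes of -0.28, -0.25, -0.84, -0.19 and -0.097 and did not pass. No marker passed 0.05 after adjustment in any comparison. Gja1, S100b and Ntsr2 did not overlap between the groups on the scaled values, 3 of 10 markers against 10.4% of all genes. Their exact permutation p was 0.0286 (two-sided), the smallest that 4 libraries against 4 allow, or 0.286 after adjustment over the 50 tests of 10 markers in 5 sets.

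The difference was smaller without p16 KO CTL replicates 6 and 7. Without them the median of the markers in Set A was -0.044, and 1 of 10 passed, against 8.49% of all genes. This was Gja1, at -0.20 ± 0.082 (passed). S100b was then at -0.11 ± 0.064 (did not pass) and Slc1a3 at -0.11 ± 0.088 (did not pass), and Aqp4, Gjb6, Slc1a2 and Aldoc were above 0. With the nuclear RNA score as a covariate the median was -0.046 and Gja1 was again the marker that passed. Leaving out 1 library at a time, 1 marker passed without replicate 6, 7, 13 or 14, 7 passed without replicate 5 and 8 without replicate 8, while 4 passed without replicate 15 or 16, and Gja1 passed in each of these 8 fits. The share of all genes that passed moved too, to 11.9% and 11.7% without replicates 6 and 7, 13.2% and 14.4% without 13 and 14, 14.1% and 13.2% without 15 and 16, 27.4% without 5 and 21.0% without 8. Beside the markers, all 11 microglial genes were lower in Set A (3 passed, summed level 597 to 852 TPM in p16 KO CTL and 556 to 669.7 TPM in p16 KO RUN), and 9 of 10 oligodendrocyte genes were lower (6 passed, 1593 to 2641 against 1273 to 1629 TPM). All 10 genes of endothelium and pericytes were higher (2 passed as higher, 95.2 to 182 against 154 to 216 TPM), as were 9 of 10 nuclear RNAs (644 to 2274 against 2106 to 2495 TPM), and no gene of these lists was at 0 in any library. Of all genes 7.74% passed as lower and 10.7% as higher in this comparison, so that 2 of 10 endothelial genes is not far from the share of all genes. Without replicates 6 and 7 the microglial, endothelial and nuclear medians were -0.044, 0.080 and -0.12, and the oligodendrocyte median was -0.46. The part of these cell types in the marker difference was not tested.

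In sedentary mice Ntsr2 and S100b were higher in the knockout than in the wild type (p16 KO CTL against p16 WT CTL, Set B, which shares p16 KO CTL with Set A). The Ntsr2 level was 191 ± 14.1 TPM in p16 KO CTL and 149 ± 5.99 TPM in p16 WT CTL (SD, n = 4), a log2 fold change of 0.42 ± 0.085 (SE) with adjusted p = 0.625. It passed in each of the 8 fits that left out 1 library, and without the 3 libraries low in nuclear RNA it was at 0.33 ± 0.054 (passed). The exact permutation p was 0.0286 (two-sided, 0.286 over the 50 tests), and 1 of 10 markers thus had groups without overlap, against 2.7% of all genes. The study had itself named Ntsr2 among its top genes of this comparison from the same samples, so this is not an independent finding. S100b was the other marker that rose, at 0.47 ± 0.19 (SE) with adjusted p = 0.625. Without the 3 libraries it was at 0.29 ± 0.073 (passed), and Gja1 at 0.20 ± 0.073 (passed). In all, 2 of 10 markers passed, against 6.69% of all genes (3.15% higher, 3.54% lower), and 9 of 10 were above 0, with a median of 0.27 against -0.011 over all genes. Without the 3 libraries the median was 0.11 and 3 passed, against 6.68% of all genes. S100b lost its call in 5 of the 8 fits without 1 library, and Aqp4, the marker below 0 at -0.13 ± 0.77 (SE), was at -1.10 ± 0.71 (did not pass) without the 3 libraries. Other cell types moved in the same comparison. Of 8 genes of oligodendrocyte precursors 7 were higher and 5 rose, against 3.15% of all genes, with a summed level of 218 to 258 TPM in p16 KO CTL and 192 to 228 TPM in p16 WT CTL, and 2 rose without the 3 libraries (median 0.32 with and without them). All 11 microglial genes were higher and 2 rose (597 to 852 against 599 to 716 TPM), while without the 3 libraries 0 passed by limma and the median went from 0.20 to 0.022. All 10 oligodendrocyte genes were higher and 1 rose (1593 to 2641 against 1086 to 2207 TPM). None of these genes was at 0 in any library, and the part of these cell types in the marker differences was not tested.

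In wild-type mice no marker passed the test between running and sedentary animals (p16 WT RUN against p16 WT CTL, Set C). Of the 10, 0 passed limma's unadjusted threshold, against 4.81% of all genes (2.69% as higher), and the median log2 fold change was -0.017 with all libraries and 0.085 without p16 WT CTL replicate 2. The nearest to the threshold was Slc1a3 at -0.20 ± 0.10 (SE), adjusted p = 0.985, and without that library it was at -0.10 ± 0.063 (did not pass). This count does not show that the levels stayed alike, since the standard errors of the 9 markers other than Aqp4 were 0.097 to 0.14. Aqp4 was at 0.64 ± 0.48 (SE), adjusted p = 0.985, and between 0.058 and 0.93 when 1 library was left out.

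Running knockout mice were also set against sedentary wild-type mice (Set D), a comparison that shares p16 WT CTL with Sets B and C and p16 KO RUN with Set A. Ntsr2 rose, at 175 ± 6.11 TPM in p16 KO RUN, with a log2 fold change of 0.23 ± 0.056 (SE), adjusted p = 0.282. It passed in all 8 fits without 1 library, and without replicate 2 it was at 0.27 ± 0.046 (passed). Its groups did not overlap, 1 of 10 markers against 5.68% of all genes. It was the one marker that passed, against 8.63% of all genes (4.97% higher, 3.66% lower), and the median of the 10 was -0.0029. Without p16 WT CTL replicate 2, 3 of 10 passed, against 11.2% of all genes, all higher: Ntsr2, S100b at 0.18 ± 0.063 (passed) and Slc1a2 at 0.17 ± 0.069 (passed).

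Between the 2 running groups (p16 KO RUN against p16 WT RUN, Set E), none of whose libraries was low in nuclear RNA, 1 of 10 markers passed, against 3.87% of all genes (2.11% higher, 1.76% lower). This was Aqp4, with -1.61 ± 0.45 (SE) on the log2 scale, adjusted p = 1.0, and the call rests on the 2 ranges of its StringTie values described above. The difference is that 3 of 4 p16 KO RUN libraries and 0 of 4 p16 WT RUN libraries were in the low range, and since replicate 16 was in the high range the groups overlapped and the exact permutation p was 0.0857 (two-sided). The other 9 markers had log2 fold changes between -0.037 and 0.18 with a median over all 10 of 0.045. Ntsr2 was at 0.18 ± 0.11 (SE), adjusted p = 1.0.

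Whether running acted differently in the 2 genotypes was tested by the interaction over all 16 libraries. By limma, 0 of 10 markers passed at an unadjusted p under 0.05, against 5.48% of all genes (2.54% lower), although all 10 were below 0 with a median of -0.24. S100b came nearest, at -0.36 ± 0.20 (SE) with adjusted p = 0.797, and Gja1 was at -0.24 ± 0.18 (SE) with adjusted p = 0.799. Without the 3 libraries low in nuclear RNA the median was -0.14, Gjb6 turned to 0.067 and 0 passed by limma. With the nuclear RNA score as covariate the median was -0.065, Slc1a2 and Slc1a3 turned to 0.0086 and 0.029, and 0 passed. Leaving out 1 library at a time, 3 markers passed without p16 WT CTL replicate 2, 2 without p16 KO CTL replicate 8 and 0 or 1 otherwise. The share of all genes was 13.7% without replicate 2 and 7.85% without replicate 8, and 11.4% without replicate 5, where 1 marker passed.

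**Figure D3:**
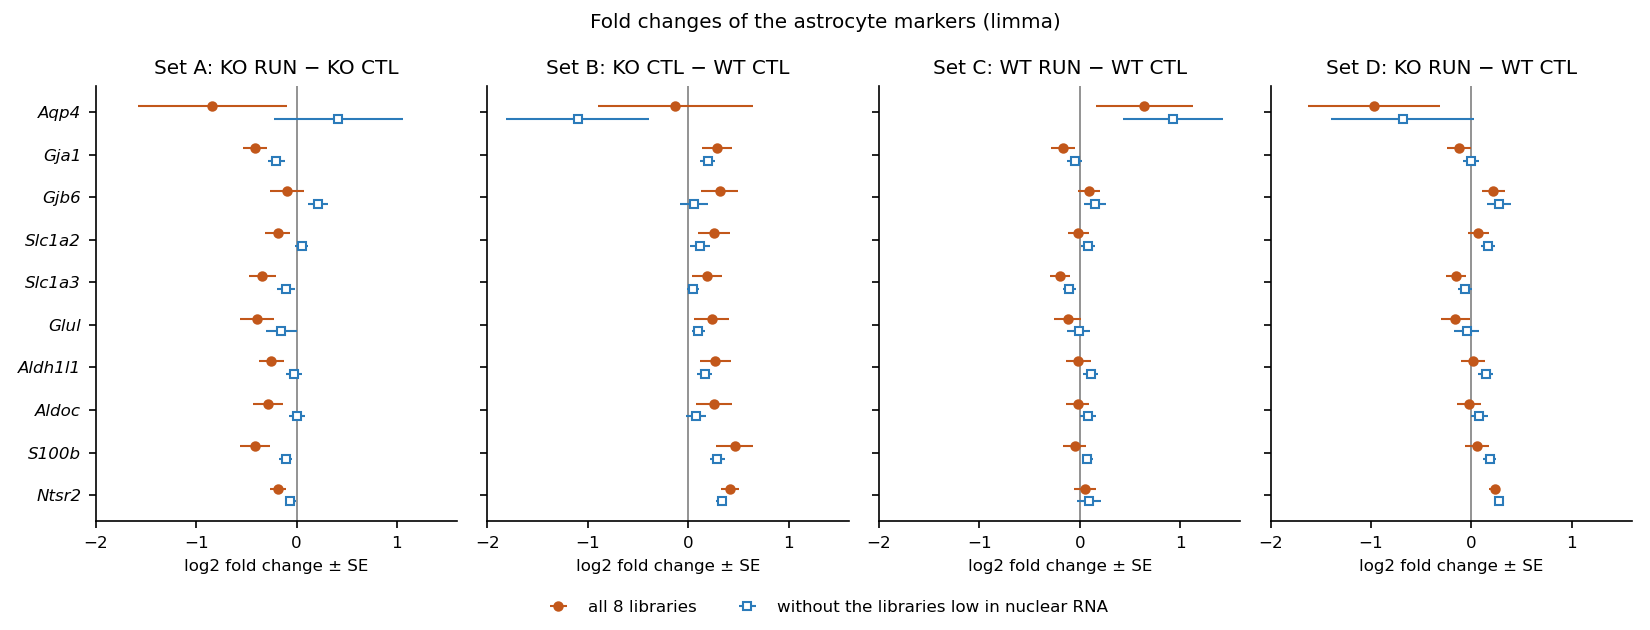
Log2 fold change ± SE of each marker by limma in Sets A to D, with all 8 libraries (filled circles) and without those low in nuclear RNA (open squares). In Set A the filled circles lie left of 0 with a median of -0.31, and the squares on both sides of 0 with a median of -0.044. Ntsr2 is at 0.42 and 0.33 in Set B and at 0.23 and 0.27 in Set D.

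Ratios between paired markers do not depend on the scaling of a library, and these were chosen after the data were seen. The ratio of Slc1a2 to Slc1a3 was 2.01 to 2.37 in p16 WT CTL, 2.20 to 2.42 in p16 KO CTL, 2.22 to 2.80 in p16 WT RUN and 2.42 to 2.83 in p16 KO RUN. It was higher in p16 KO RUN than in p16 WT CTL by 0.22 on the log2 scale, and than in p16 KO CTL by 0.15, without overlap in either case (exact permutation p = 0.0286 for each, 0.0953 over 10 tests). In running against sedentary wild-type mice it was higher by 0.18 (exact permutation p = 0.0571, 0.143 over 10 tests), and between the running groups it differed by 0.038 (exact permutation p = 0.657). The ratio of Gja1 to Gjb6 was 3.25 to 5.09, 3.62 to 4.52, 3.18 to 3.91 and 3.08 to 3.56 in the same order. In p16 KO RUN it was lower than in p16 KO CTL by 0.32 on the log2 scale without overlap (exact permutation p = 0.0286, 0.0953 over 10 tests). Replicates 6 and 7, low in nuclear RNA, had the lower ratios within p16 KO CTL, down to 3.62 in replicate 7, whereas replicates 5 and 8 were at 4.49 and 4.52. The ratio in running wild-type mice differed from sedentary ones by -0.26 (exact permutation p = 0.143). In p16 KO RUN the Gja1 to Gjb6 ratio differed from p16 WT CTL by -0.34, with overlap (exact permutation p = 0.114). From p16 WT RUN it differed by -0.080 (exact permutation p = 0.371). No ratio passed 0.05 after the adjustment.

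**Figure D4:**
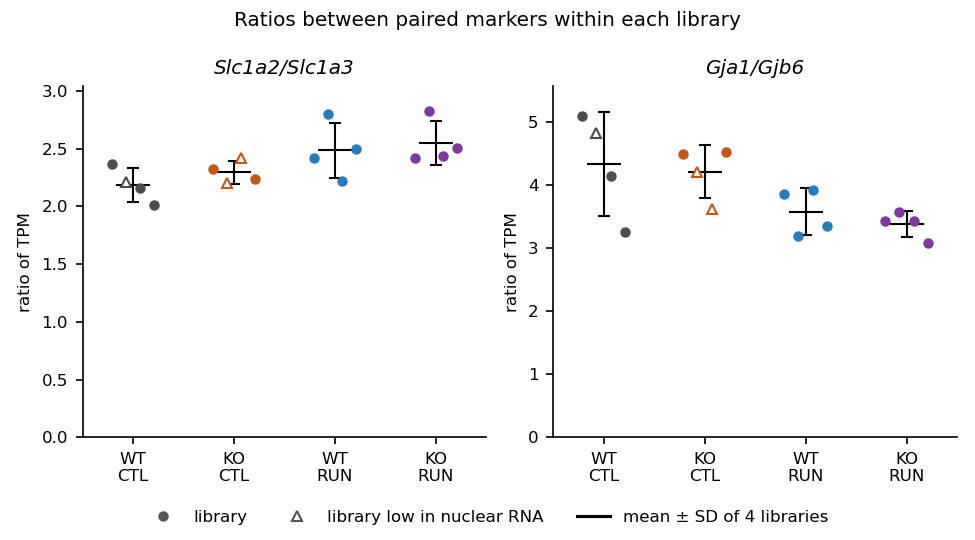
Ratio of TPM within each library for Slc1a2 to Slc1a3 (left) and Gja1 to Gjb6 (right) in the 4 groups; points are libraries, open triangles those low in nuclear RNA, bars the mean ± SD of 4. The Gja1 to Gjb6 ratio is 3.08 to 3.56 in p16 KO RUN, below the 3.62 to 4.52 of p16 KO CTL.

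A list of 40 other astrocyte genes was read beside the markers. In Set A 15 of 40 fell and 0 rose, where 7.74% of all genes fell and 10.7% rose, with a median of -0.23 (0.018 over all genes). When the 3 libraries were left out 6 fell and 3 rose, where 8.49% of all genes passed in either direction, and the median was -0.023. In Set B 8 rose and 1 fell (median 0.24, and 0.12 without the 3 libraries), where 3.15% of all genes rose and 3.54% fell. Without the 3 libraries 8 rose and 0 fell by limma there, where 6.68% of all genes passed in either direction. With the nuclear RNA score as covariate 2 rose and 0 fell by limma, where 4.34% passed. Set D had 6 that rose and 2 that fell, where 4.97% of all genes rose and 3.66% fell, and without replicate 2 it had 11 and 0, where 11.2% passed. In Set C 1 of 40 rose, and in Set E 1 rose and 1 fell, which is near the shares of all genes (2.69% in Set C, 2.11% and 1.76% in Set E). In the interaction 4 were lower, where 2.54% of all genes were. Sox9, a transcription factor of astrocytes and stem cells, measured 29.2, 34.3, 29.6 and 27.2 TPM in the 4 p16 WT CTL libraries, 33.2, 39.2, 35.6 and 33.3 TPM in p16 KO CTL, 26.9, 25.5, 31.4 and 30.0 TPM in p16 WT RUN and 28.6, 28.2, 27.0 and 25.9 TPM in p16 KO RUN. It fell in Set A at -0.43 ± 0.086 (SE), adjusted p = 0.124, and without the 3 libraries at -0.30 (passed). In the interaction it was at -0.34 ± 0.14 (SE), adjusted p = 0.797, and without them at -0.29 (passed). The other genes of that list with the smallest p in the interaction were Grm3 at -0.47 ± 0.19 (SE) (adjusted p = 0.797) and Gabrg1 at -0.46 ± 0.19 (SE) (adjusted p = 0.797). Without the 3 libraries they were at -0.33 (passed) and -0.44 (passed). In the 16 fits without 1 library Grm3 passed in 12, Sox9 in 10 and Gabrg1 in 8. Slc6a11, a GABA transporter, fell in Set A at -0.32 ± 0.074 (SE) (adjusted p = 0.147), and Gabrg1, a GABA receptor subunit, at -0.43 ± 0.11 (SE) (adjusted p = 0.158). Without the 3 libraries they were at -0.22 (passed) and -0.28 (passed).

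Kcnj10, the potassium channel of astrocytes, rose in Set D at 0.38 ± 0.11 (SE) (adjusted p = 0.374) and without replicate 2 was at 0.45 (passed). In Set A it was at 0.033 ± 0.19 (SE), and without replicates 6 and 7 at 0.33 (passed). Apoe, the lipid carrier, was at -0.35 ± 0.16 (SE) in Set A (adjusted p = 0.286) and 0.35 ± 0.19 (SE) in Set B (adjusted p = 0.625), and without the 3 libraries at -0.073 (did not pass) and 0.20 (did not pass). Slc4a4, a bicarbonate transporter, rose in Set C at 0.15 ± 0.045 (SE) (adjusted p = 0.937) and in Set D at 0.16 ± 0.042 (SE) (adjusted p = 0.318), and without replicate 2 it was at 0.15 (passed) and 0.15 (passed). In Set B the smallest p belonged to Sox9 (0.29 ± 0.11 (SE), adjusted p = 0.625), Gabrg1 (0.39 ± 0.15 (SE), adjusted p = 0.625) and Mt3, a metallothionein (0.28 ± 0.11 (SE), adjusted p = 0.625). Leaving out the 3 libraries put these at 0.25 (passed), 0.38 (passed) and 0.23 (passed), but each passed in only 3 of the 8 fits without 1 library. In Set E Slc39a12 rose (0.17 ± 0.055 (SE), adjusted p = 1.0) and Grm3, a glutamate receptor, fell (-0.15 ± 0.066 (SE), adjusted p = 1.0). Leaving out 1 library, Slc39a12 passed in 8 of 8 fits and Grm3 in 2 of 8.

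Serpina3n and Vim, genes raised in reactive astrocytes, were higher in running knockout mice than in either sedentary group, but neither passed between the running groups. Of the 16 genes listed, 15 were tested, and by limma 0 fell in any set at an unadjusted p under 0.05. In Set A 4 rose, where 10.7% of all genes did, and without the 3 libraries 2 rose, where 8.49% passed in either direction. Of the other sets, Set B had 2 that rose (3.15% of all genes), Set C 1 (2.69%), Set D 5 (4.97%) and Set E 0 (2.11%). Serpina3n, a protease inhibitor, measured 65.2, 63.6, 54.6 and 62.4 TPM in the 4 p16 WT CTL libraries, 53.9, 54.1, 59.4 and 70.9 TPM in p16 KO CTL, 70.2, 139.7, 61.2 and 83.1 TPM in p16 WT RUN and 76.4, 114, 107 and 100.2 TPM in p16 KO RUN. It rose in Set A at 0.67 ± 0.14 (SE) (adjusted p = 0.13) and in Set D at 0.68 ± 0.13 (SE) (adjusted p = 0.23), and without the 3 libraries it was at 0.65 (passed) and 0.72 (passed). Gfap, the intermediate filament of astrocytes, measured 416, 542, 462 and 451 TPM in the 4 p16 WT CTL libraries, 609.9, 747, 702 and 428 TPM in p16 KO CTL, 458, 958, 544 and 574 TPM in p16 WT RUN and 540.2, 617, 668 and 693 TPM in p16 KO RUN. It rose in Set D at 0.42 ± 0.11 (SE) (adjusted p = 0.313) and in Set B at 0.45 ± 0.19 (SE) (adjusted p = 0.625), where without the 3 libraries it was at 0.25 (did not pass), and was at -0.022 ± 0.18 (SE) in Set A, where without the 3 libraries it turned to 0.28 (did not pass). Vim, a filament shared with stem cells, measured 36.5, 39.5, 29.6 and 39.4 TPM in the 4 p16 WT CTL libraries, 43.0, 36.1, 38.4 and 43.2 TPM in p16 KO CTL, 38.0, 60.6, 41.4 and 42.5 TPM in p16 WT RUN and 48.4, 51.9, 45.5 and 48.2 TPM in p16 KO RUN. It rose in Set A at 0.21 ± 0.068 (SE) (adjusted p = 0.208), and in Set D at 0.42 ± 0.11 (SE) (adjusted p = 0.296). Without the 3 libraries Vim was at 0.15 in Set A (did not pass) and 0.49 in Set D (passed). In Set B Vim was at 0.21 ± 0.11 (SE) (did not pass), and without the 3 libraries at 0.34 (passed). Running wild-type mice had Serpina3n at 0.44 ± 0.23 (SE) and Vim at 0.30 ± 0.16 (SE) in Set C, and neither passed. Between the running groups (Set E) they were at 0.24 ± 0.25 (SE) and 0.12 ± 0.14 (SE), and neither passed. Nor did either pass in the interaction, at 0.225 ± 0.29 (SE) and -0.094 ± 0.19 (SE). Stat3, a transcription factor of the reactive response, rose by 0.24 ± 0.085 (SE) in Set B, 0.20 ± 0.058 (SE) in Set C and 0.27 ± 0.061 (SE) in Set D (adjusted p = 0.625, 0.937 and 0.246). Once the 3 libraries were left out it was at 0.10 (did not pass), 0.18 (passed) and 0.24 (passed), so the Set B call was lost. In the 8 fits of Set B without 1 library Stat3 passed in 4 and Gfap in 2. Lcn2, an iron-binding protein secreted by reactive cells, was near the floor and measured 0, 0, 0.272 and 4.67 TPM in the 4 p16 WT CTL libraries, 0, 0, 0.271 and 0 TPM in p16 KO CTL, 1.78, 3.96, 0 and 1.62 TPM in p16 WT RUN and 0.395, 0.628, 3.42 and 0.457 TPM in p16 KO RUN. It passed in Set A, but in Set D it did not (adjusted p = 0.83), and its highest value was in a sedentary wild-type library.

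**Figure D5:**
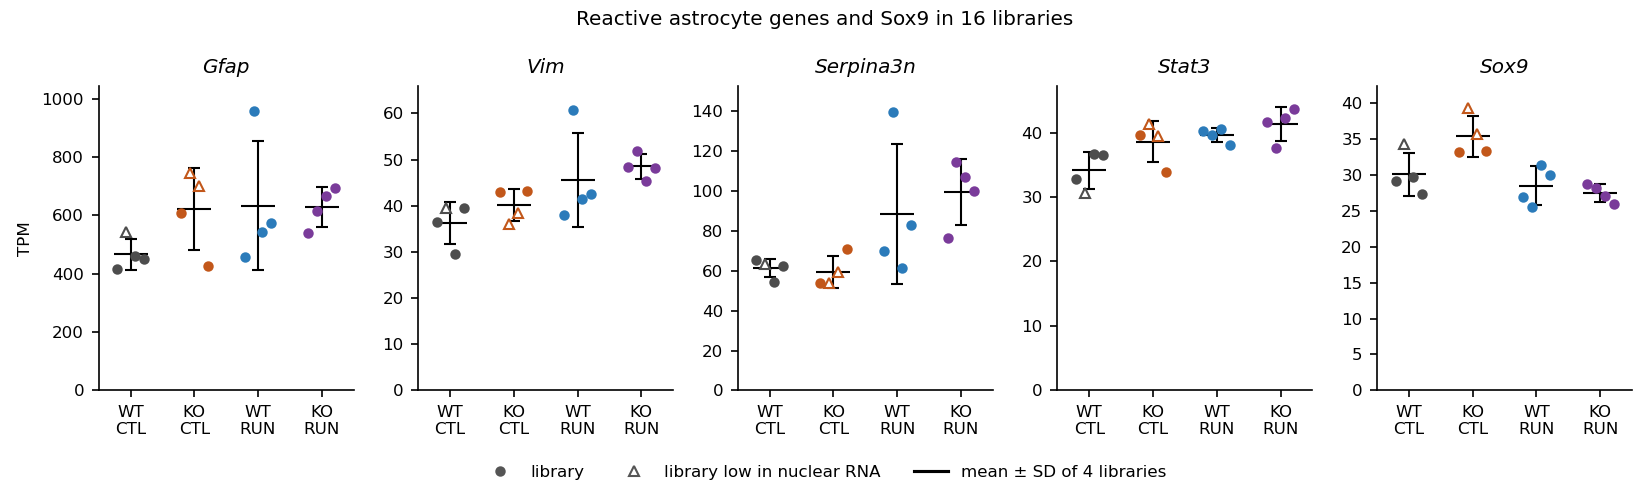
TPM (vertical axes from 0) of Gfap, Vim, Serpina3n, Stat3 and Sox9 in the 4 groups; points are libraries, open triangles those low in nuclear RNA, bars the mean ± SD of 4. Serpina3n is 76.4 to 114 TPM in p16 KO RUN and 53.9 to 70.9 TPM in p16 KO CTL, and Sox9 is 25.9 to 28.6 TPM against 33.2 to 39.2 TPM.

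For glutamate, potassium and lactate handling, 19 listed genes were found, of which 3 are markers described above. In Set A 8 of 19 fell and 1 rose (median -0.17), where 7.74% of all genes fell and 10.7% rose. When the 3 libraries low in nuclear RNA were left out 2 fell and 2 rose (median -0.0074), where 8.49% of all genes passed. In Set D 4 of 19 rose and 0 fell by limma, where 4.97% and 3.66% of all genes did. Of the 12 genes of radial glia and stem cells 11 were tested. In Set A 4 fell and 1 rose (median -0.30), where 7.74% and 10.7% of all genes did. Without the 3 libraries 3 fell and 0 rose (median -0.18), where 8.49% of all genes passed. In Set B 4 rose, where 3.15% of all genes did. Without the 3 libraries 7 rose there (median 0.27), where 6.68% of all genes passed in either direction. With the nuclear RNA score as covariate 0 passed by limma (median 0.17), where 4.34% of all genes passed. Outside the 3 libraries the list's median centred log2 level was 0.076 and 0.074 in p16 KO CTL. It was -0.185, -0.044 and -0.21 in p16 WT CTL. Of 12 pan-neuronal genes 0 passed in Set A by limma, with a median of -0.042.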

How the data were processed

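Total RNA of the dentate gyrus was made into 16 mRNA libraries, each from the pooled dentate gyri of 2 mice. According to the study's methods and processing notes, the authors demultiplexed with bcl2fastq (2.20), masked adapters with Cutadapt (1.11), trimmed with ERNE, aligned with STAR to mm10 and used StringTie. The deposited TPM values were computed by the authors with StringTie, per gene entry and normalized to the library total. The deposited FPKM values and the coverage (mean read depth) come from the same StringTie run of the authors and served as alternatives. The study gives the depth in reads only as an average over samples. Read counts per library were not used here, so no counting interval is given. Because TPM holds no counts, the authors' count test was not repeated.

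TPM of entries sharing a gene name were summed (24421 names). Libraries were scaled by the median ratio to the mean library over 13226 genes that reached 1 TPM in all 16, and log2(scaled TPM + 0.1) of the 17317 genes whose mean reached 0.1 TPM was fitted with limma (3.58.1, R 4.3.3), with a variance trend, on the 8 libraries of each pair of groups, or on 16 for the interaction. Fold changes are on this scale and understate changes of low genes. All limma p-values are two-sided, and are unadjusted unless called adjusted (Benjamini and Hochberg over all genes tested). The fit was tested on simulated data, and no outcome of that test is reported here. Exact permutation tests used the 70 assignments of 8 libraries (scipy 1.17.1). Labels name no batch. The study calls the 4 samples of a group independent. Whether the pools were processed separately is not said in its methods, so p-values measure the spread between these libraries.

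Members and gene lists were chosen with earlier results of these data known. Named genes were all 10 markers; of the other astrocyte and reactive lists the 3 of smallest unadjusted p per comparison, plus Gfap, Sox9, Apoe and Kcnj10; and the 5 genes most like the markers, with and without group means. Some genes that this rule names are not reported here. Alternatives were other filters, pseudocounts, scalings and units, 1 fit for all groups, no trend, the nuclear RNA score as covariate and leaving out each library. Coverage and leaving out 3 libraries were added after the data were seen.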

Additional observations from a re-analysis of the deposited data

Results flagged for a closer look

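In p16 KO RUN, Aqp4 of replicate 16 (97.35 TPM) stood far above the other 3 libraries of its group, which lay between 19.1 and 24.8 TPM. In p16 WT CTL, Slc1a3 of replicate 2 (577.9 TPM) stood far above the other 3, which lay between 475 and 483 TPM. Both exceed Dixon's critical value for 4 libraries. Of the 40 groups of 4 tested, chance gives such a value in about 5% of them.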

How the results depend on the processing

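In Set A 5 of 10 markers passed. Without a filter 2 did, with TPM as deposited 3, with quantile normalization 3, without the variance trend 2, with the nuclear RNA score as covariate 1, and without the 3 libraries low in nuclear RNA 1. The median of -0.31 became -0.0463 with the covariate and -0.0439 without these libraries. Aqp4, Slc1a2 and Gjb6 then turned to 0.367, 0.0403 and 0.203 with the covariate, and Aqp4, Slc1a2, Gjb6 and Aldoc to 0.418, 0.051, 0.218 and 0.002 without the libraries. In Set B 2 passed, 1 without a filter and 1 without the trend, but 3 with 1 fit for all groups, 3 without the 3 libraries and 3 with the covariate, where the median of 0.27 became 0.0632 and Aqp4 went from -0.13 to -1.08 and passed as lower. In Set D 1 passed (8.63% of all genes), 3 with the covariate (12.7%) and 3 without the 3 libraries (11.2%). In Set E 1 passed (3.87%) and 2 with the covariate (4.5%). The median of the interaction went from -0.24 to -0.065 with the covariate. The causes were not tested.

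Leaving out 1 library at a time gave 1 to 8 markers in Set A (1 without p16 KO CTL replicate 6, 8 without replicate 8), 1 to 4 in Set B (4 without p16 WT CTL replicate 2), 0 to 1 in Set C, 1 to 3 in Set D, 1 to 2 in Set E and 0 to 3 in the interaction. Gjb6 in Set A ranged from -0.205 to 0.0462, and Aqp4 in Set B from -0.715 to 0.382. Single markers were tallied for 22 results only, the 10 markers in Sets A and B, Ntsr2 in Set D and Aqp4 in Set E. Of their 461 values under alternatives, 392 kept direction and side of the threshold, 46 lost and 10 gained the call and 13 turned.

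The share of all genes that passed in Set A was 18.5%, 9.87% with the covariate and 8.49% without the 3 libraries. It was 16.1% without a filter, 18.5% with TPM as deposited, 17.8% with quantile normalization and 16.0% without the trend. In Set B it was 6.69%, 12.7% with 1 fit for all groups, 4.34% with the covariate and 3.22% to 17.5% without 1 library. Without a filter it was 6.49% there, and 6.15% without the trend. Leaving out 1 library gave 3.07% to 5.88% in Set C and 6.53% to 11.2% in Set D. The same gave 2.81% to 6.05% in Set E and 3.57% to 13.7% in the interaction. No paired analysis was possible because no replicate number is shared between groups. The depth of each library in reads was not used here, and 4 pools per group limit the precision.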
